A study of Mus musculus with 20 samples.

Results

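The 10 LLC1 tumors from mice given cisplatin, out of 20 tumors sequenced, were compared by the library code that precedes each sample's name. The 5 tumors with codes c732 to c736 are called earlier-code (cisplatin alone replicates 1 and 2, cotreatment replicates 1, 2 and 3). The 5 tumors with codes c757 to c761 are called later-code (cisplatin alone replicates 3, 4 and 5, cotreatment replicates 4 and 5). The labels do not say what a code marks (a day, a cohort of mice, an extraction or a sequencing run), so whatever differed between the code sets cannot be told apart here. All 20 tumors came from LLC1 cells, a Lewis lung carcinoma line of C57BL6 mice, injected s.c. with Matrigel into male C57BL6/J mice aged 8 to 10 weeks. Treatment was vehicle, cisplatin, KW6002 (istradefylline, which blocks an adenosine receptor) or cisplatin plus KW6002 (cotreatment), with 5 tumors a group and 1 library a tumor. Tumors without cisplatin carried earlier codes in 3 cases (1 vehicle, 2 KW6002) and later codes in 7 (4 vehicle, 3 KW6002). Each library holds tumor cells and host cells mixed, so fewer cells of a type and less RNA per cell cannot be told apart. No defining markers of LLC1 cells were listed, and the tumor label itself was not checked against such markers.

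Cisplatin binds DNA and forms crosslinks, which activate p53 and its targets. A subcutaneous tumor also holds host macrophages, neutrophils, lymphocytes, fibroblasts and vessels. Interferon-response genes are turned on by transcription factors that include the IRF family, macrophages and neutrophils are drawn in by chemokines, and cholesterol synthesis is turned on by the factor SREBP2 when sterols run low.

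Libraries held 29.4 to 41.0 M counted reads in the earlier-code tumors and 31.7 to 35.9 M in the later-code tumors, so depth overlapped between the sets (exact permutation test of the codes within each treatment arm, two-sided, p = 0.57). Ribosomal protein genes took 1.68% to 1.86% of counts in the earlier-code and 1.98% to 2.39% in the later-code tumors, with no overlap (exact permutation p = 0.01, the smallest that 100 arrangements allow, 0.07 after adjustment over 7 library measures). On the first principal component, which held 31.2% of the variance among the 10 tumors, the earlier-code tumors lay from -30.2 to -7.34 and the later-code tumors from -2.13 to 48.5. Skeletal muscle genes set some libraries apart: their summed level was 2063 CPM (read counts scaled to library size) in cotreatment 4 and 10.6 to 448 CPM in the other 4 later-code tumors, against 9.57 to 269.6 CPM in the earlier-code tumors. None of the 20 muscle genes tested passed the threshold.

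Among the gene lists, 16 of 46 interferon-response genes, 10 of 34 chemokine and cytokine genes and 7 of 20 macrophage genes were called higher in the later-code tumors, and 9 of 33 genes of cholesterol and fatty acid synthesis were called lower, while most members of each list did not pass. Of 16665 genes tested with edgeR, with KW6002 as a covariate, 805 (4.83%) were called at an adjusted p under 0.05 and an absolute log2 fold change of at least 0.32. Of these, 447 were higher (2.68% of genes tested) and 358 lower (2.15%) in the later-code tumors. The values of the 5 and 5 tumors did not overlap for 1440 genes (8.64%). The median log2 fold change over all genes was 0.00083, so the groups of genes below moved against a centre at 0. Leaving out 2 tumors, as for some lists below, moved the calls over all genes tested. Without cotreatment 4 and cisplatin 3, 1054 were called higher and 860 lower, and without cisplatin 4 and 5, 138 and 87. The number of calls also depended on single tumors. It fell to 2 without cisplatin 1, 7 without cisplatin 2, 240 without cotreatment 3, 407 without cotreatment 1, 417 without cisplatin 4 and 447 without cisplatin 5, and rose to 1351 without cisplatin 3 and 1283 without cotreatment 2. Without cisplatin 1 or 2, cisplatin alone keeps 1 earlier-code tumor, and 0 members of the gene lists below were called in either case. Of 92 genes named by rule, 89 were called in this comparison, all 89 kept their sign with each tumor left out, as genes selected on these same tumors tend to, and Slc11a1 was the 1 gene called every time.

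**Figure D1:**
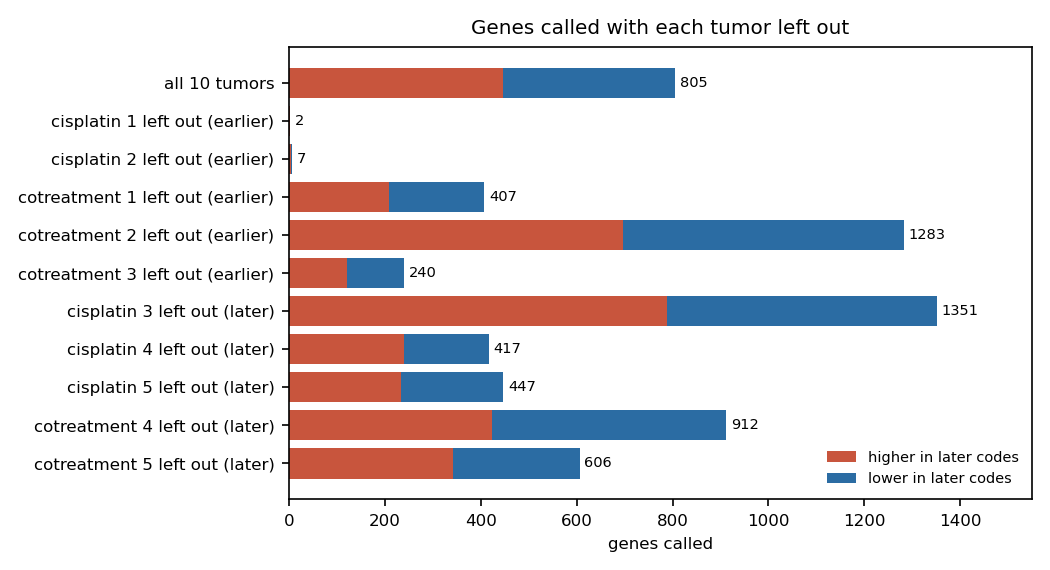
Number of genes called (horizontal axis) with all 10 cisplatin-treated tumors and with each tumor left out in turn, split into genes higher and lower in the later-code tumors. The bars run from 2 genes without cisplatin 1 to 1351 genes without cisplatin 3, beside 805 with all 10 tumors.

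Values per tumor are given in 1 order throughout: cisplatin 1 and 2, then cotreatment 1, 2 and 3 for the earlier codes, and cisplatin 3, 4 and 5, then cotreatment 4 and 5 for the later codes. Slc11a1 (chr1:74375195-74386062, GRCm38), a metal ion transporter of the macrophage phagosome, was at 21.04, 18.8, 13.1, 13.7 and 14.5 CPM in the earlier-code tumors and at 27.8, 33.3, 32.1, 23.2 and 23.7 CPM in the later-code tumors. The sets did not overlap, although cotreatment 4 and 5 lay closest to the earlier-code range (log2 fold change 0.71 ± 0.07 SE, adjusted p = 0.00503). Adam8 (chr7:139978932-139992562), a cell surface metalloprotease of leukocytes, was at 187, 223, 166, 189 and 157 CPM in the earlier-code tumors and at 275, 314, 301, 247 and 277 CPM in the later-code tumors. Every later-code tumor exceeded the highest earlier-code tumor, cisplatin 2 (log2 fold change 0.58 ± 0.07 SE, adjusted p = 0.0102). Qpct (chr17:79051906-79090378), which forms the pyroglutamate end of several peptides and chemokines, was at 5.51, 6.93, 5.26, 5.90 and 4.77 CPM in the earlier-code tumors and at 9.35, 13.2, 13.2, 10.4 and 11.1 CPM in the later-code tumors, without overlap (log2 fold change 0.98 ± 0.12 SE, adjusted p = 0.0102).

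Spon2, which encodes a secreted matrix protein, rose from 1.94 ± 0.397 to 5.64 ± 2.27 CPM (mean ± SD, n = 5 and 5), and its highest values were in cisplatin 4 and 5 (log2 fold change 1.39 ± 0.20 SE, adjusted p = 0.0139). Cfp, or properdin, which stabilises the complement convertase, rose from 69.4 ± 8.55 to 113 ± 21.5 CPM (log2 fold change 0.64 ± 0.09 SE, adjusted p = 0.0139). Hexa, a subunit of the lysosomal enzyme hexosaminidase A, rose from 84.999 ± 14.4 to 138 ± 24.96 CPM, and Rragd, a Rag GTPase that brings mTORC1 to the lysosome, rose from 1.71 ± 0.215 to 3.28 ± 0.349 CPM. The log2 fold changes were 0.63 for Hexa and 0.91 for Rragd. Igsf6, Cd300ld, Anxa6, Emilin2 and Ccl9 completed the 12 called genes of smallest p without overlap, with log2 fold changes from 0.33 (Emilin2) to 0.54 (Igsf6).

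The called genes of largest increase with a mean of at least 50 counts included several of low level. Cd5l, a protein secreted by macrophages, was at 0.169, 0.152, 0.440, 1.65 and 0.239 CPM in the earlier-code tumors and at 1.48, 9.63, 4.88, 3.91 and 9.39 CPM in the later-code tumors. Cotreatment 2 stood apart from the other earlier-code tumors and reached the lowest later-code values, so the sets overlapped (log2 fold change 3.76 ± 0.80 SE, adjusted p = 0.0319). Marco, a macrophage scavenger receptor, overlapped in the same way, again through cotreatment 2 at 3.06 CPM (log2 fold change 2.89 ± 0.61 SE, adjusted p = 0.0311). Nos2, the inducible nitric oxide synthase, was at 4.46, 11.02, 4.89, 2.26 and 2.69 CPM in the earlier-code tumors and at 14.5, 77.5, 71.4, 13.2 and 12.2 CPM in the later-code tumors. The later-code tumors fell into a high pair, cisplatin 4 and 5, and a lower group of 3, all above the earlier-code tumors (log2 fold change 2.39 ± 0.57 SE, adjusted p = 0.0435). Ptx3, a secreted pentraxin of innate immunity, had a log2 fold change of 3.22, and Itgbl1 of 2.62. With each tumor left out in turn, Nos2 and Ptx3 were each called 1 time of 10, Itgbl1 3 times, and Cd5l and Marco 4 times each.

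**Figure D2:**
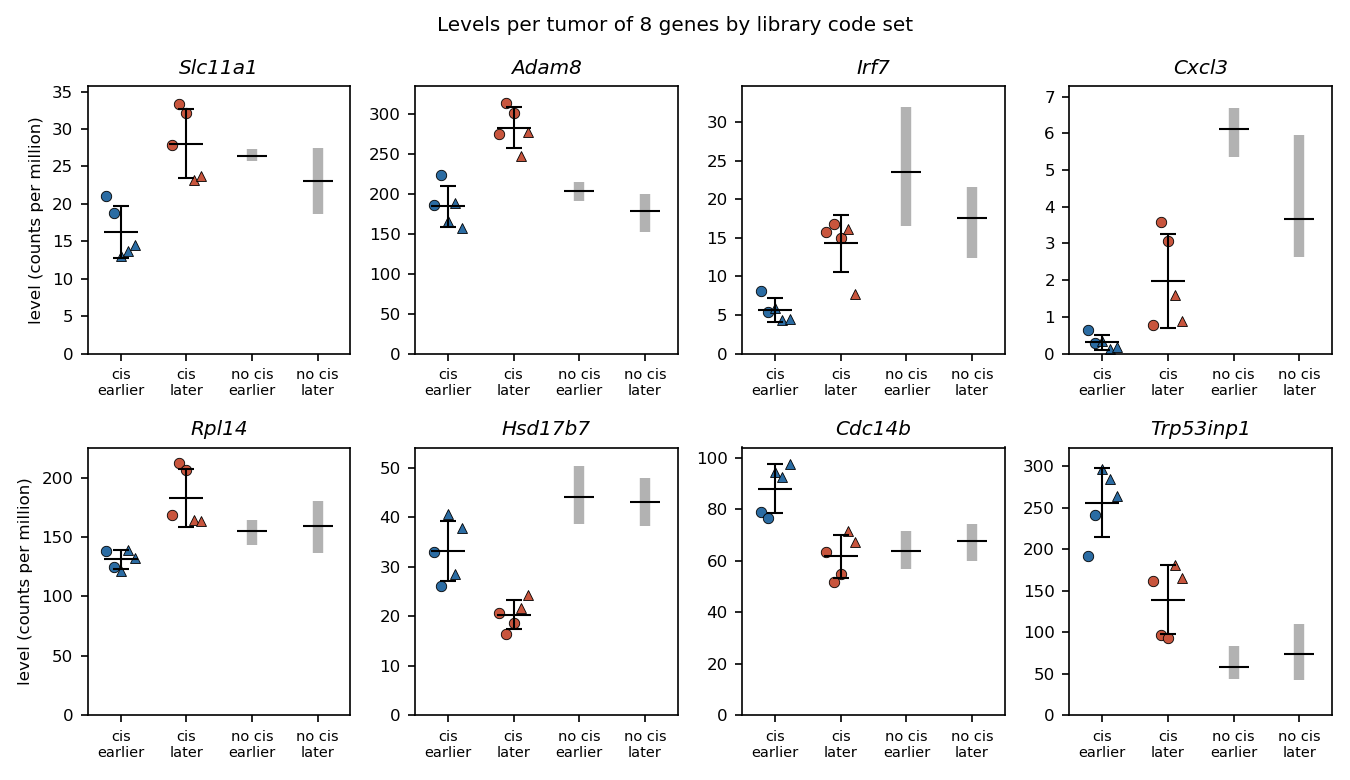
Level of 8 genes in CPM (vertical axes, linear from 0) in each cisplatin-treated tumor by code set (circles, cisplatin alone; triangles, cotreatment; bars, mean ± SD, n = 5), with the range (grey) and mean (line) of the 3 earlier-code and 7 later-code tumors without cisplatin. Slc11a1, Adam8, Cxcl3 and Rpl14 are higher and Hsd17b7, Cdc14b and Trp53inp1 lower in all 5 later-code tumors than in any earlier-code tumor, and Irf7 overlaps in cotreatment 5 at 7.74 CPM.

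Interferon-response genes had the most called members of the lists tested. Of 46 tested, 16 rose, 0 fell and 30 did not pass, with a median log2 fold change of 0.58. Irf7, a transcription factor that amplifies the interferon response, was at 8.12, 5.41, 5.92, 4.33 and 4.50 CPM in the earlier-code tumors and at 15.7, 16.7, 14.99, 16.2 and 7.74 CPM in the later-code tumors. Later-code tumors other than cotreatment 5 lay at 14.99 CPM or more, and cotreatment 5 fell inside the earlier-code range (log2 fold change 1.25 ± 0.19 SE, adjusted p = 0.0139). Ifit3, an antiviral effector, was at 2.44, 2.08, 1.64, 1.24 and 1.19 CPM in the earlier-code tumors and at 6.26, 6.62, 4.51, 4.68 and 1.93 CPM in the later-code tumors, with cotreatment 5 low again (log2 fold change 1.32 ± 0.22 SE, adjusted p = 0.0143). Oas1a and Oasl1 belong to the oligoadenylate synthetase family, whose active members make the activator of RNase L. Oas1a was at 2.67, 2.06, 2.25, 2.40 and 1.77 CPM in the earlier-code tumors and at 4.05, 5.46, 5.11, 4.21 and 3.06 CPM in the later-code tumors, without overlap (log2 fold change 0.90 ± 0.16 SE, adjusted p = 0.0145), and Oasl1 rose from 1.49 ± 0.384 to 3.57 ± 1.06 CPM (log2 fold change 1.16 ± 0.22 SE, adjusted p = 0.0175). Other called members were Isg15, Oas2, Oas3, Oasl2, Rsad2, Usp18, Bst2, Xaf1, Rtp4, Gbp3 and Cxcl10, with log2 fold changes from 0.51 (Xaf1) to 1.26 (Usp18). The summed level of the list was 447 to 614 CPM in the earlier-code tumors and 541 to 797 CPM in the later-code tumors, with an overlap. It was higher in every tumor without cisplatin, at 914 to 1319 CPM (earlier) and 801 to 1137 CPM (later). Without cisplatin 4 and 5, the 2 tumors highest in T and NK cell genes, 8 members were called.

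The promoters of these members are shown because the interferon-stimulated response element, GAAA, any 2 bases, GAAA, is the site bound by IRF factors and ISGF3. RefSeq promoters (GRCm38.p6, 250 bases before to 50 after the start) were matched for 12 of the 16 called members, and the element was found on either strand in 8 of the 12, in 19 of 34 matched list members and in 358 of 11445 promoters of tested genes (3.13%). Of these 8, 5 hold more than 1 match, and 4 of the 5 (all but Oas1a) are printed 5′ to 3′ on the gene's strand, up to the start site at most, with the matched letters in capitals (TTTC, any 2 bases, TTTC is the element on the other strand). A match is a description of these letters.
Isg15 (chr4:156200850-156200921, minus strand): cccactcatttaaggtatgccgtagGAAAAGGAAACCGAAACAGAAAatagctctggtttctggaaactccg
Ifit3 (chr19:34583348-34583441, plus strand): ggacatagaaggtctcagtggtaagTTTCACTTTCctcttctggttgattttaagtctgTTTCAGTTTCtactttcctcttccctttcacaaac
Bst2 (chr8:71537562-71537627, minus strand): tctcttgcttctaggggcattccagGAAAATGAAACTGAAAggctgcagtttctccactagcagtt
Gbp3 (chr3:142559974-142560039, plus strand): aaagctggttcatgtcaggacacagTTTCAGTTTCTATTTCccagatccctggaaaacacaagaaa
Isg15, a ubiquitin-like protein, holds 3 overlapping matches and rose from 3.78 ± 1.88 to 8.15 ± 2.30 CPM (log2 fold change 1.03 ± 0.26 SE, adjusted p = 0.0383). Ifit3 holds 2 matches. Bst2, or tetherin, which holds virus particles at the cell surface, also holds 2 and rose from 20.8 ± 4.52 to 33.3 ± 8.69 CPM (log2 fold change 0.59 ± 0.13 SE, adjusted p = 0.0257). Gbp3, a guanylate-binding GTPase, holds 2 and rose from 4.78 ± 0.605 to 7.66 ± 1.68 CPM (log2 fold change 0.63 ± 0.16 SE, adjusted p = 0.0302).

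Of 34 chemokine and inflammatory cytokine genes, 10 rose, 0 fell and 24 did not pass, with a median log2 fold change of 0.71. Cxcl3, a chemokine that attracts neutrophils, was at 0.643, 0.279, 0.343, 0.110 and 0.171 CPM in the earlier-code tumors and at 0.787, 3.59, 3.07, 1.60 and 0.874 CPM in the later-code tumors. Cisplatin 3 was the lowest later-code tumor and still lay above the highest earlier-code tumor, cisplatin 1 (log2 fold change 2.49 ± 0.47 SE, adjusted p = 0.0186). Ccl3, a ligand of CCR1, was at 2.54, 4.42, 1.74, 1.38 and 0.750 CPM in the earlier-code tumors and at 5.02, 6.47, 11.03, 4.49 and 3.77 CPM in the later-code tumors, with cisplatin 2 inside the later-code range (log2 fold change 1.37 ± 0.28 SE, adjusted p = 0.0235). Ccl12, a ligand of CCR2, rose from 11.5 ± 5.21 to 22.9 ± 11.04 CPM, and cotreatment 4 and 5 stayed within the earlier-code range (log2 fold change 0.68 ± 0.14 SE, adjusted p = 0.0235). Ccl9, a myeloid chemokine that binds CCR1, was at 124, 121, 130.4, 119 and 108 CPM in the earlier-code tumors and at 172, 191, 159, 144 and 165 CPM in the later-code tumors, without overlap (log2 fold change 0.44 ± 0.07 SE, adjusted p = 0.0139). The other called members were Ccl4, Ccl6, Cxcl2, Cxcl10, Il10 and Osm. Cxcl10 is also on the interferon list. The summed level did not overlap, at 1109 to 1379 CPM in the earlier-code tumors and 1464 to 1938 CPM in the later-code tumors. Without cisplatin 4 and 5, 2 members were called.

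Of 20 macrophage and monocyte genes tested, 7 rose, 0 fell and 13 did not pass, with a median log2 fold change of 0.41. Adgre1, which encodes the macrophage antigen F4/80, was at 123, 127, 74.9, 87.5 and 84.8 CPM in the earlier-code tumors and at 152, 145, 141, 133 and 115 CPM in the later-code tumors. The earlier-code cisplatin alone tumors overlapped the later-code range, and the 3 earlier-code cotreatment tumors did not (log2 fold change 0.40 ± 0.08 SE, adjusted p = 0.0171). Trem2, a lipid-sensing receptor of macrophages, was at 31.4, 31.3, 29.8, 37.3 and 25.9 CPM in the earlier-code tumors and at 48.9, 72.7, 52.5, 42.03 and 46.2 CPM in the later-code tumors, without overlap (log2 fold change 0.70 ± 0.14 SE, adjusted p = 0.0232). Fcgr1, the high-affinity IgG receptor, rose from 20.003 ± 3.52 to 30.3 ± 5.41 CPM (log2 fold change 0.52 ± 0.09 SE, adjusted p = 0.0145), and C1qa, a chain of complement C1q, rose from 189 ± 18.5 to 272 ± 54.5 CPM (log2 fold change 0.47 ± 0.12 SE, adjusted p = 0.0339). Cd68, C1qb and Ms4a7 were the other 3. The summed level of the list did not overlap, at 5969.7 to 6639.9 CPM in the earlier-code tumors and 6911 to 8457 CPM in the later-code tumors, and was 5942 to 6085 CPM (earlier) and 5695 to 6974 CPM (later) in the tumors without cisplatin. The count of members called was 6 without cisplatin 4 and 5, and 6 without cotreatment 4 and cisplatin 3, the tumors highest in muscle genes. With counts corrected for gene length and GC, 4 were called.

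Among 12 neutrophil genes, Mmp8, a granule collagenase, and Clec4d, a C-type lectin receptor, rose, and 10 did not pass. Mmp8 was at 1.39, 2.36, 2.67, 2.23 and 2.80 CPM in the earlier-code tumors and at 3.63, 5.24, 3.13, 3.11 and 5.90 CPM in the later-code tumors, without overlap (log2 fold change 0.94 ± 0.22 SE, adjusted p = 0.0268). The highest earlier-code value of Clec4d was 35.5 CPM in cotreatment 1 and the lowest later-code value was 35.6 CPM in cisplatin 3 (log2 fold change 0.53 ± 0.12 SE, adjusted p = 0.027). S100a8 and S100a9, the calprotectin subunits, had log2 fold changes of 1.20 and 1.74 and did not pass (adjusted p = 0.0883 and 0.085). The summed neutrophil level was 60.3 to 77.02 CPM in the earlier-code tumors and 92.3 to 169 CPM in the later-code tumors, without overlap, and the median log2 fold change was 0.90. In the tumors without cisplatin the level was 188 to 264 CPM (earlier) and 115 to 168 CPM (later), also without overlap and in the opposite direction. Without cisplatin 4 and 5, 0 neutrophil genes were called higher and 1 lower. Without cotreatment 4 and cisplatin 3, 4 were called higher, and with 1 tumor left out the count ran from 0 to 6.

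Of 19 T and NK cell genes, the cytotoxic granule genes Prf1 and Gzmb rose and 17 did not pass. Prf1, or perforin, was at 2.503, 2.13, 0.758, 0.854 and 0.989 CPM in the earlier-code tumors and at 3.84, 4.45, 5.25, 1.51 and 2.09 CPM in the later-code tumors. The sets overlapped: cotreatment 4 and 5 lay below cisplatin 1 (log2 fold change 1.01 ± 0.16 SE, adjusted p = 0.0139). Gzmb, or granzyme B, was at 2.44, 1.63, 1.15, 1.41 and 0.443 CPM in the earlier-code tumors and at 3.66, 4.51, 6.52, 1.82 and 3.49 CPM in the later-code tumors, with an overlap through cisplatin 1 and cotreatment 4 (log2 fold change 1.33 ± 0.30 SE, adjusted p = 0.0254). The median log2 fold change of the list, 0.64 with all 10 tumors, was -0.055 without cisplatin 4 and 5.

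**Figure D3:**
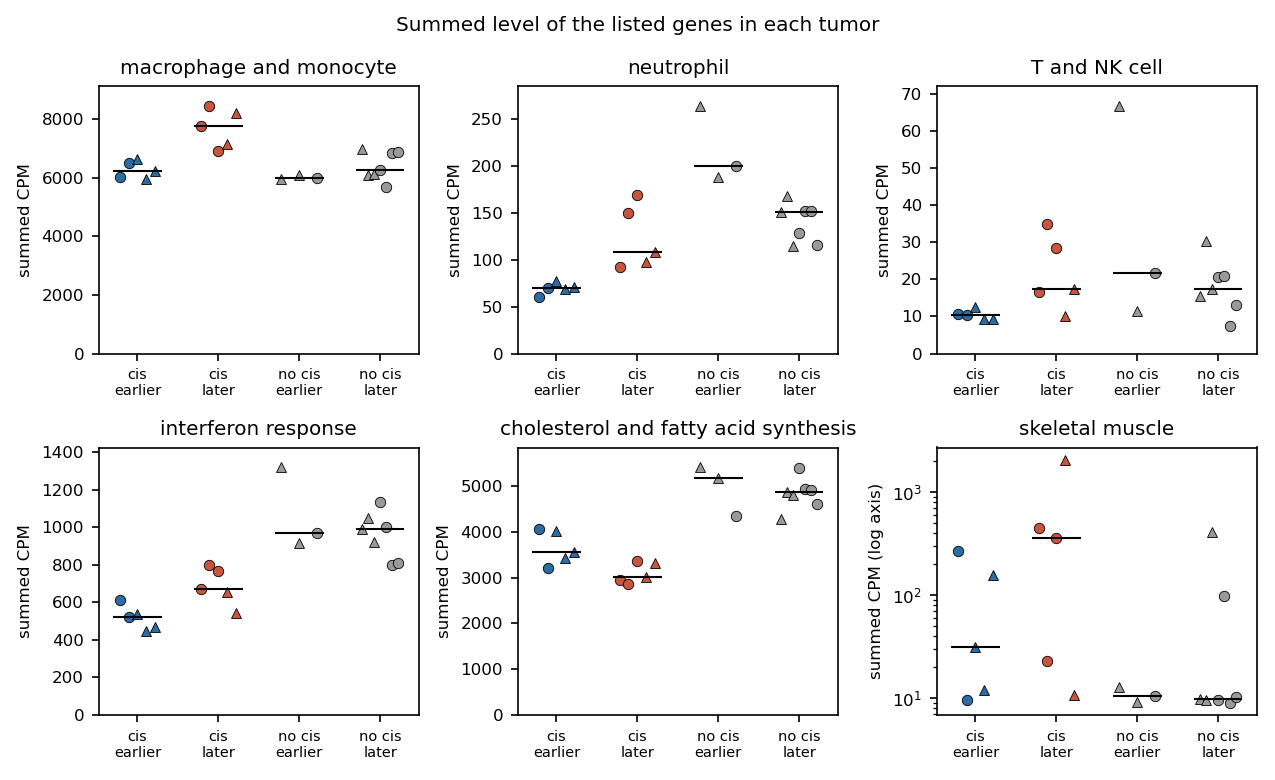
Summed level of the genes of 6 lists in each tumor (vertical axes, CPM, linear from 0 except a log axis for skeletal muscle) by code set, with and without cisplatin. Circles are cisplatin alone or vehicle, triangles are cotreatment or KW6002, lines are medians. Macrophage and neutrophil levels do not overlap between the code sets under cisplatin, and the muscle level reaches 2063 CPM in cotreatment 4.

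The other cell types gave few calls. Fibroblast genes had 2 of 18 called higher: Fbln1, a matrix glycoprotein, rose from 14.7 ± 2.44 to 26.1 ± 6.21 CPM (log2 fold change 0.78 ± 0.16 SE, adjusted p = 0.0241), and Igf1, a growth factor, rose from 6.95 ± 1.85 to 17.1 ± 5.93 CPM (log2 fold change 1.27 ± 0.29 SE, adjusted p = 0.0333). Without cotreatment 4 and cisplatin 3, 10 fibroblast genes were called higher and 1 lower, beside 1054 and 860 of all genes. Only 1 was called without cisplatin 4 and 5, and 1 with counts corrected for gene length and GC. Lyve1, a hyaluronan receptor of lymphatic vessels and some macrophages, was the 1 endothelial gene of 18 to rise, from 26.9 ± 4.63 to 48.3 ± 10.3 CPM (log2 fold change 0.85 ± 0.17 SE, adjusted p = 0.0235), beside a list median of -0.0043, and 0 endothelial genes were called without cisplatin 4 and 5. Of 15 epidermis and hair follicle genes 3 were tested. Dmkn, a secreted protein of the epidermis, rose from 0.269 ± 0.135 to 2.20 ± 1.28 CPM (log2 fold change 2.96 ± 0.53 SE, adjusted p = 0.0185), Krt10 and Sbsn did not pass (log2 fold changes 0.09 and -0.09), and the summed level overlapped, at 11.1 to 16.4 CPM in the earlier-code tumors and 10.6 to 19.04 CPM in the later-code tumors. None of the dendritic cell (12), B and plasma cell (7), mast cell (10), pericyte (12), Schwann cell (8) or adipocyte (13) genes tested was called. Within cisplatin alone, where 9.79% of all genes were called, 5 dendritic cell, 2 B and plasma cell and 4 mast cell genes were. Pericyte, Schwann cell and adipocyte genes had 0. Medians of the dendritic, B and mast cell lists were 0.70, 0.95 and 2.57 in cisplatin alone. In cotreatment they were 0.0095, -0.096 and 0.028. The Y-linked genes Eif2s3y and Kdm5d, from a list of 5 sex-linked genes kept as a check in these male hosts, rose by 0.48 ± 0.13 SE and 0.51 ± 0.15 SE on the log2 scale (adjusted p = 0.0411 and 0.0454), whereas Xist, at 981 ± 95.2 and 765 ± 202 CPM, had a log2 fold change of -0.34 and did not pass (adjusted p = 0.2). The part of host or tumor cell share in the other results was not tested.

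Of 69 cytosolic ribosomal protein genes, 9 rose, 0 fell and 60 did not pass, with a median log2 fold change of 0.22, and the summed level did not overlap. Rpl14, of the large subunit, was at 138, 125, 122, 139 and 132 CPM in the earlier-code tumors and at 168, 212, 206, 164 and 164 CPM in the later-code tumors. Cisplatin 4 and 5 were highest and the other 3 later-code tumors lay from 164 to 168 CPM (log2 fold change 0.45 ± 0.08 SE, adjusted p = 0.0143). Rps28 rose from 65.2 ± 2.38 to 89.9 ± 11.96 CPM and Rps19 from 259 ± 12.3 to 339 ± 32.4 CPM, both small subunit proteins (log2 fold changes 0.45 and 0.38). Ribosomal protein genes have many processed pseudogenes, so their counts are uncertain. Of 73 nuclear genes of oxidative phosphorylation, 6 rose, 0 fell and 67 did not pass, with a median of 0.16. Atp5d, a subunit of ATP synthase, rose from 73.4 ± 7.02 to 103 ± 19.2 CPM (log2 fold change 0.41 ± 0.09 SE, adjusted p = 0.0232), and Ndufb8, of complex I, rose from 39.2 ± 3.07 to 52.9 ± 8.27 CPM (log2 fold change 0.40 ± 0.09 SE, adjusted p = 0.0267). With the same correction, 4 ribosomal protein genes and 1 oxidative phosphorylation gene were called, and without cisplatin 4 and 5 the counts were 4 and 0. The correction lowered the list medians to 0.099 and 0.049, and the median over all genes from 0.00083 to -0.047. Without cotreatment 4 and cisplatin 3 the counts went the other way, with 15 and 9 called higher.

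Of 33 genes of cholesterol and fatty acid synthesis, 9 fell, 0 rose and 24 did not pass, with a median log2 fold change of -0.33. Hsd17b7, which acts late in cholesterol synthesis, was at 32.8, 26.1, 40.6, 28.5 and 37.8 CPM in the earlier-code tumors and at 20.5, 16.3, 18.7, 21.6 and 24.2 CPM in the later-code tumors. All later-code tumors lay below cisplatin 2, the lowest earlier-code tumor (log2 fold change -0.65 ± 0.11 SE, adjusted p = 0.0139), and the gene was at 38.6 to 50.3 CPM in the 3 earlier-code and 38.1 to 47.9 CPM in the 7 later-code tumors without cisplatin. Acly, which makes cytosolic acetyl-CoA, was at 343, 290.2, 323, 278 and 275 CPM in the earlier-code tumors and at 260.5, 232, 254, 225 and 234 CPM in the later-code tumors, without overlap (log2 fold change -0.35 ± 0.07 SE, adjusted p = 0.0171). Insig1, the sterol sensor that holds SREBP in the ER, was at 51.3, 39.4, 47.5, 41.8 and 47.2 CPM in the earlier-code tumors and at 30.5, 32.7, 35.5, 37.4 and 38.4 CPM in the later-code tumors, without overlap (log2 fold change -0.36 ± 0.08 SE, adjusted p = 0.0243). Stard4, a sterol carrier, fell from 90.2 ± 12.98 to 58.9 ± 7.60 CPM (log2 fold change -0.61 ± 0.12 SE, adjusted p = 0.0203). Hmgcs1, which makes HMG-CoA, fell from 136 ± 23.4 to 93.1 ± 14.6 CPM (log2 fold change -0.50 ± 0.12 SE, adjusted p = 0.0309), and Lss and Msmo1, which act later in the pathway, had log2 fold changes of -0.47 and -0.48. The summed level of the list was 3207 to 4063 CPM in the earlier-code tumors and 2859 to 3373 CPM in the later-code tumors, against 4356 to 5411 CPM (earlier) and 4280.1 to 5397 CPM (later) without cisplatin. With the length and GC correction 11 members were called lower, and without cisplatin 4 and 5, 3 were. The sterol regulatory element, ATCACC followed by CCAC, was in none of the 6 promoters matched for called members, and in 3 of 11445 promoters of tested genes (0.0262%).

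**Figure D4:**
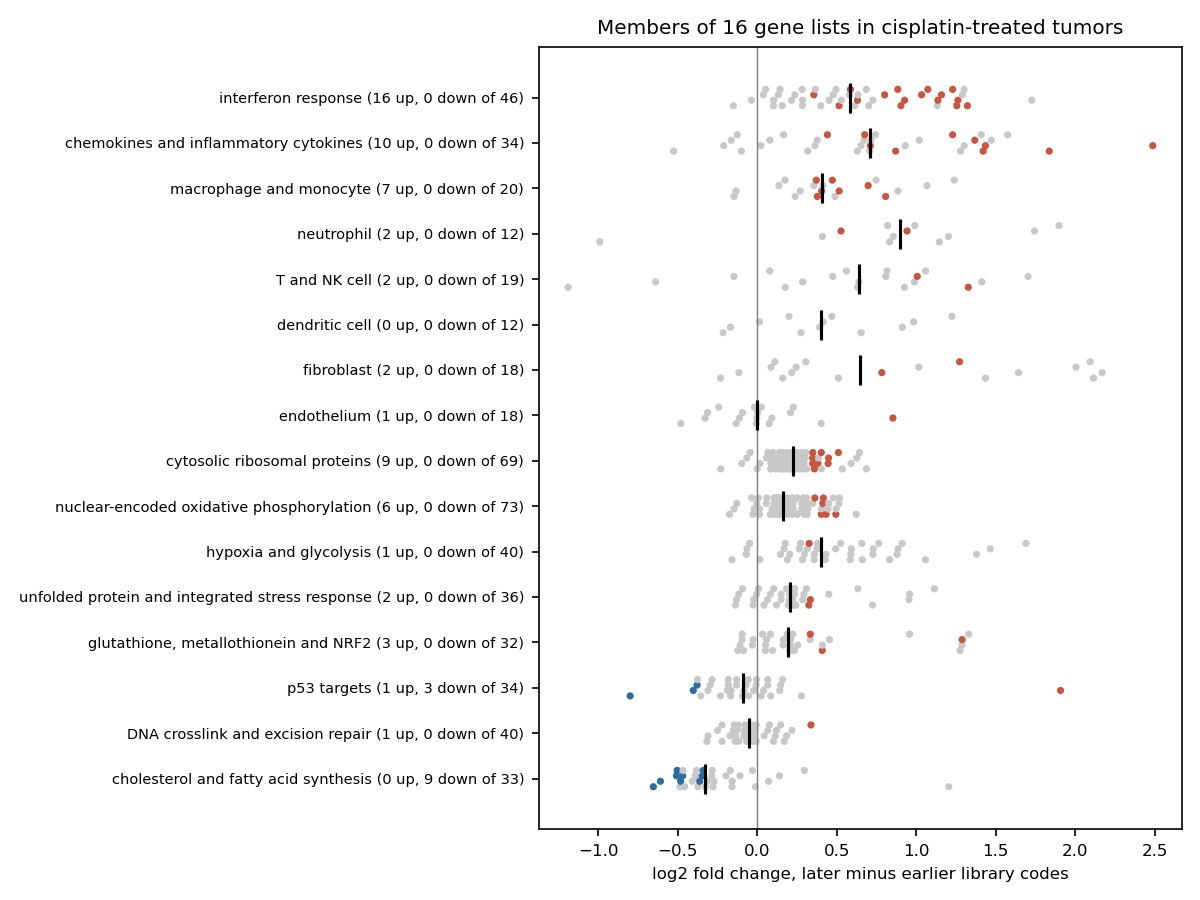
Log2 fold change of each tested member of 16 gene lists (horizontal axis, later minus earlier codes), with called members in red (higher) or blue (lower), others in grey, and the list median as a black line. Interferon (16 of 46), chemokine (10 of 34) and macrophage (7 of 20) members are called higher, and 9 of 33 cholesterol and fatty acid synthesis members lower.

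Of 34 p53 targets, 3 fell, 1 rose and 30 did not pass, with a median log2 fold change of -0.087. Trp53inp1, a p53-induced nuclear protein that promotes cell death, was at 192, 242, 297, 285 and 264 CPM in the earlier-code tumors and at 161, 95.99, 92.9, 180.4 and 166 CPM in the later-code tumors. No later-code tumor reached the lowest earlier-code tumor, cisplatin 1 (log2 fold change -0.80 ± 0.16 SE, adjusted p = 0.0242), and levels were 43.1 to 82.99 CPM in the 3 earlier-code and 42.7 to 109 CPM in the 7 later-code tumors without cisplatin. Apaf1, the scaffold of the apoptosome, was at 146, 157, 167, 165 and 188 CPM in the earlier-code tumors and at 131, 103, 107, 138 and 126 CPM in the later-code tumors, without overlap (log2 fold change -0.40 ± 0.07 SE, adjusted p = 0.0145). Zmat3, an RNA-binding p53 target, fell from 334 ± 18.2 to 256 ± 42.98 CPM (log2 fold change -0.38 ± 0.10 SE, adjusted p = 0.0414). Gdf15, a secreted stress cytokine, rose from 0.308 ± 0.229 to 1.65 ± 1.17 CPM, at few reads (log2 fold change 1.91 ± 0.45 SE, adjusted p = 0.0283). Without cotreatment 4 and cisplatin 3, 10 p53 targets were called lower, beside 860 of all genes (358 with all 10 tumors). Of 40 genes of crosslink and excision repair, Ercc1, a subunit of the endonuclease that cuts beside crosslinks, rose from 46.8 ± 7.11 to 58.3 ± 4.93 CPM (log2 fold change 0.34 ± 0.10 SE, adjusted p = 0.0483), and 39 did not pass. With each tumor left out in turn Ercc1 was called 2 times of 10, and it was not called with counts corrected for gene length and GC. The list as a whole lay the other way: 11 of 40 members had a positive log2 fold change, the median was -0.051, and the summed level was 2130.0 to 2241 CPM in the earlier-code tumors and 2029 to 2093 CPM in the later-code tumors, without overlap. Rev3l, Fancm and Ercc6 had log2 fold changes of -0.32, -0.31 and -0.22, short of the fold limit (adjusted p = 0.0156, 0.0228 and 0.04). Among 46 replication genes 0 were called, and among 40 genes of G2 and mitosis Ube2c, a ubiquitin-conjugating enzyme of the anaphase-promoting complex, rose (log2 fold change 0.41 ± 0.10 SE, adjusted p = 0.0267), a share near the 2.68% of all genes called higher. Positive log2 fold changes that mostly did not pass were found for 41 of the 46 replication genes and 39 of the 40 genes of G2 and mitosis (medians 0.11 and 0.13).

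Stress lists and the others in this paragraph had 1 to 3 called members each, among 19 to 40 genes tested, beside 4.83% of all genes called. Whether their shares differ from that of all genes was not tested. Hmox1, heme oxygenase 1, was at 193, 293, 115, 203 and 113 CPM in the earlier-code tumors and at 299, 525, 733.9, 399 and 405 CPM in the later-code tumors. The lowest later-code tumor, cisplatin 3, lay just above the highest earlier-code tumor, cisplatin 2 (log2 fold change 1.29 ± 0.30 SE, adjusted p = 0.0385). Fth1, ferritin heavy chain, and Gpx1, glutathione peroxidase 1, were the other 2 of 32 glutathione, metallothionein and NRF2 genes to rise (log2 fold changes 0.41 and 0.33). Manf, an ER-resident factor, and Slc3a2, the heavy chain of amino acid transporters, rose among 36 unfolded protein and integrated stress genes (0.32 and 0.33). Angptl4, an inhibitor of lipoprotein lipase, was at 23.1, 50.3, 18.03, 31.4 and 11.3 CPM in the earlier-code tumors and at 65.5, 116, 112, 55.1 and 62.4 CPM in the later-code tumors, without overlap (log2 fold change 1.47 ± 0.34 SE, adjusted p = 0.0403), and was the 1 of 19 glucocorticoid-responsive genes called. Of heat shock chaperones Cryab rose and Hspa4l fell (0.82 and -0.34), and of MHC genes H2-T23, a nonclassical class I gene, rose and Nlrc5, the class I transactivator, fell (0.63 and -0.45). Positive log2 fold changes, mostly not passing, were found for 18 of the 19 MHC genes tested (median 0.34). Eno2 was the 1 of 40 hypoxia and glycolysis genes called (0.33), and 18 were called higher without cotreatment 4 and cisplatin 3. Col16a1 of the collagens and Ctsb, cathepsin B, of the protease list rose by 0.44 and 0.35 on the log2 scale, and Taf1d, of the RNA polymerase I list, fell by 0.34. With each tumor left out in turn, Hmox1, Angptl4, Slc3a2, Cryab and Col16a1 were each called 2 times of 10, and Gpx1 and Ctsb 7 times each. With counts corrected for gene length and GC, 0 members were called on the NRF2, unfolded protein, glucocorticoid, heat shock, hypoxia, collagen and RNA polymerase I lists. Without cisplatin 4 and 5, the same lists had 0 called members except hypoxia, with 2. Several other lists gained calls, like hypoxia, without cotreatment 4 and cisplatin 3. Called higher there were 7 unfolded protein, 5 NRF2, 5 glucocorticoid and 7 collagen genes, and 12 of 27 protease genes. The heat shock and RNA polymerase I lists had 1 each and the MHC list 2.

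Genes called lower had a median log2 fold change of -0.39 and a median of 1530 counts, against 0.60 and 409 counts for genes called higher. Cdc14b (chr13:64189268-64275290), a dual-specificity phosphatase, was at 79.05, 76.5, 94.5, 92.7 and 97.8 CPM in the earlier-code tumors and at 63.4, 51.7, 54.8, 71.5 and 67.3 CPM in the later-code tumors. The lowest earlier-code value was in cisplatin 2 and the highest later-code value in cotreatment 4, with no overlap (log2 fold change -0.45 ± 0.06 SE, adjusted p = 0.0102). Chd2, a chromatin remodeler, was at 226, 215, 246, 250.7 and 255 CPM in the earlier-code tumors and at 164, 151, 173, 209 and 199 CPM in the later-code tumors, without overlap (log2 fold change -0.37 ± 0.05 SE, adjusted p = 0.0139). Uvssa, which acts in transcription-coupled repair, fell from 62.5 ± 4.03 to 48.05 ± 4.97 CPM (log2 fold change -0.34 ± 0.05 SE, adjusted p = 0.0139), and Dync2h1, the motor of retrograde transport in cilia, from 73.8 ± 2.09 to 56.3 ± 4.59 CPM (log2 fold change -0.38 ± 0.06 SE, adjusted p = 0.0139). The other protein-coding genes of this set were Csnk1g1, Ttc19, 0610010F05Rik, Plscr4, Arhgap5 and Cep97, with log2 fold changes from -0.48 (Arhgap5) to -0.39 (Ttc19).

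The genes of smallest p and of largest decrease included some whose reads are hard to assign. Gm38253 (-0.74) lies inside Lrif1 (-0.51) on the same strand, Gm42664 (-0.65) inside Ptbp2 (-0.36), and Gm49599 (-0.99) inside Golgb1 (-0.16). Gm38393 (-0.84) overlaps Snhg14 and Snrpn, Pcdhb19 (-0.81) belongs to a cluster of similar protocadherins, and Btnl7-ps (-0.80) is a pseudogene. The strand option of the counting was not given in the sources used here.

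Genes called lower were longer and lower in GC content than genes called higher. The median exon length was 7310 bases for genes called lower, 2725 bases for genes called higher and 3852.5 bases for all genes tested, and the median GC content was 42.5%, 52.1% and 49.3%. Across 16654 genes with these values, the log2 fold change correlated with GC content at Pearson r = 0.25 (Spearman rho = 0.36) under cisplatin and at r = -0.098 (rho = -0.31) in the tumors without cisplatin, a description over genes that share the same libraries. Genes were put in 10 near-equal classes of GC content. In the lowest class 12 genes were called higher and 148 lower, and in the highest 67 and 3. From the lowest to the highest class the medians rose from -0.23 to 0.26 in cisplatin alone. In cotreatment they went from -0.095 in the lowest class to 0.034 in class 8 and 0.010 in the highest. With a correction per tumor for length and GC content, 386 genes were called (200 higher, 186 lower), of which 308 were among the 805. Of the 89 named genes, 55 were called with it, among them Slc11a1, Adam8, Qpct, Irf7, Hsd17b7, Cdc14b and Trp53inp1, and 34 were not, among them Hmox1, Manf, Angptl4 and Ercc1. The part of RNA quality or library preparation in this trend was not tested.

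**Figure D5:**
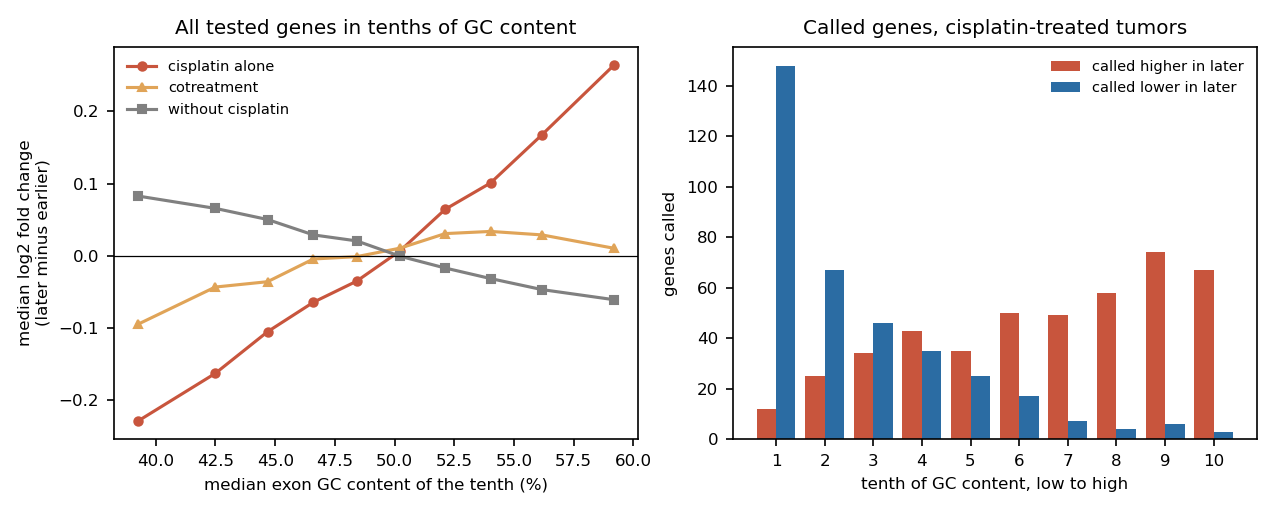
Left, median log2 fold change (later minus earlier codes) of all tested genes in 10 classes of exon GC content for cisplatin alone, cotreatment and tumors without cisplatin. Right, genes called in each class under cisplatin, from 12 higher and 148 lower in the lowest class to 67 higher and 3 lower in the highest.

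Each treatment arm was then examined by itself. In cisplatin alone (2 earlier-code and 3 later-code tumors) 1631 genes were called (9.79%; 835 higher and 796 lower), and in cotreatment (3 and 2 tumors) 0 were called with edgeR (0% of genes tested), with 1934 at an unadjusted p under 0.05 and 105 called by DESeq2. The count in cisplatin alone was 0 on leaving out cisplatin 1, 2, 4 or 5, 3455 without cisplatin 3 and 915 without cotreatment 3. The sign in cotreatment matched for 1441 of the 1631 (88.4%), against 67.4% of all genes. The difference between the arms itself was called for 0 genes (0%; 1597 at an unadjusted p under 0.05, 28 called by DESeq2). Slc11a1 differed by 0.64 in cisplatin alone and 0.77 in cotreatment, Irf7 by 1.23 in cisplatin alone and 1.28 in cotreatment, Cxcl3 by 2.46 in cisplatin alone and 2.52 in cotreatment and Hsd17b7 by -0.67 in cisplatin alone and -0.64 in cotreatment (log2). Adgre1 differed by 0.23 in cisplatin alone and 0.58 in cotreatment, and C1qa by 0.67 in cisplatin alone and 0.27 in cotreatment. These genes were called on both arms together, which favors like signs. List medians in cisplatin alone and cotreatment were 1.28 and -0.13 (T and NK cell), 1.37 and 0.54 (neutrophil), 0.66 and 0.034 (MHC) and 0.91 and 0.095 (glucocorticoid). Other lists lay closer, at 0.73 and 0.50 (interferon), 0.22 and 0.20 (ribosomal protein) and -0.37 and -0.26 (cholesterol and fatty acid).

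Among tumors without cisplatin, the code sets (3 and 7 tumors) gave 0 called genes with edgeR (0%; 772 at an unadjusted p under 0.05, 5 called by DESeq2), in a fit of all 20 tumors that called 1215 genes (7.29%) for the code sets under cisplatin. The test of the difference between the code effects with and without cisplatin called 302 genes (1.81%), 133 positive and 169 negative. This count also moved with single tumors: it was 0 without vehicle 1, 1 without KW6002 1, KW6002 5 or cisplatin 1, 5 without cisplatin 2 or cotreatment 3, 39 and 79 without cisplatin 4 and 5, 67, 90 and 126 without vehicle 5, 2 and 4, 138 without KW6002 4, and 109 and 163 without cotreatment 1 and 5. It was from 529 to 1062 without cotreatment 4, cisplatin 3, cotreatment 2, KW6002 2 or KW6002 3. Of the 805 genes called under cisplatin, 220 (27.3%) kept their sign without it, against 40.7% of all genes.

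Slc11a1 was at 25.7 to 27.3 CPM in the 3 earlier-code and 18.6 to 27.4 CPM in the 7 later-code tumors without cisplatin, so cisplatin 1 and 2 fell within the later-code range and the earlier-code cotreatment tumors below both ranges (interaction log2 0.87, adjusted p = 0.00357). Adam8 was at 191 to 215 CPM in the 3 earlier-code and 152 to 199 CPM in the 7 later-code tumors without cisplatin, and here the later-code tumors under cisplatin lay above the rest (interaction log2 0.77, adjusted p = 0.0181). Icam1, an adhesion molecule for leukocytes, was at 8.86, 9.93, 8.98, 9.09 and 8.19 CPM in the earlier-code tumors and at 12.5, 14.97, 13.8, 11.8 and 11.9 CPM in the later-code tumors, and at 12.3 to 13.2 CPM in the 3 earlier-code and 9.20 to 12.4 CPM in the 7 later-code tumors without cisplatin (interaction log2 0.75, adjusted p = 0.0181). Ccl3 was at 5.84 to 8.60 CPM in the 3 earlier-code and 3.10 to 5.64 CPM in the 7 later-code tumors without cisplatin (interaction log2 2.11, adjusted p = 0.0252), and Hexa at 116 to 134 CPM in the 3 earlier-code and 109 to 139 CPM in the 7 later-code tumors without cisplatin (interaction log2 0.69, adjusted p = 0.0252). On the negative side, Rev3l, the catalytic subunit of the translesion polymerase zeta, was at 156, 146, 159, 165 and 174 CPM in the earlier-code tumors and at 126, 106, 113, 140.4 and 140.3 CPM in the later-code tumors, and at 109 to 122 CPM in the 3 earlier-code and 117 to 149.8 CPM in the 7 later-code tumors without cisplatin (interaction log2 -0.55, adjusted p = 0.0271). Fbxl20, Tbcd, Ovgp1 and Prkacb were the other 4 named by rule (log2 -0.45, -0.38, -0.61 and -0.32). Of the 46 interferon genes 11, and 6 of the 34 chemokine genes and 4 of the 12 neutrophil genes (S100a8, S100a9, Csf3r and Il1r2) were called in this test, all positive, against 1.81% of genes in both directions. Other lists had few or none: 1 of 20 macrophage genes and 1 of 33 cholesterol and fatty acid synthesis genes. For ribosomal protein and oxidative phosphorylation genes it was 0 of 69 and 0 of 73.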

How the data were processed

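Polyadenylated RNA of 20 LLC1 tumors was sequenced from stranded libraries. Per the labels and the methods of the study, the authors demultiplexed with bcl2fastq 2.17.1.14, aligned single-end reads to mm10 with STAR and counted uniquely aligned reads per Ensembl gene with HTSeq 0.6.1p1, and the deposited table holds these raw counts for 35226 genes. Reads carried no molecular identifiers. Total counts were 28.4 to 41.0 M per tumor.

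Counts were tested with edgeR 4.0.16 (R 4.3.3), quasi-likelihood with robust dispersions, two-sided, over 16665 genes kept by filterByExpr on the 4 groups (99.9% of counts), with TMM scaling and Benjamini-Hochberg adjustment. The main fit held the 10 cisplatin-treated tumors with KW6002 and code set as terms. Tumors without cisplatin and the interaction came from 1 fit of all 20 tumors, and single arms from 4 means of the 10 tumors. Replicates are separate tumors, and none of the 20 within-arm pairs of cisplatin-treated tumors agreed within sampling noise (chi-square per degree of freedom 11.4 to 83.0). CPM used the same TMM factors. Symbols and positions came from GENCODE M21 (GRCm38) for 35142 genes, and 985 of 993 list entries matched. Alternatives were RLE and upper quartile scaling, other filters, DESeq2 1.42.0, limma 3.58.1 (voom with sample weights), an offset by loess on gene length and GC content (per tumor), a replicate block and leaving out tumors. On simulated counts for the main comparison (16665 genes, 100 changed at each size), 60% of changes of 0.5 and 89% of changes of 1 on the log2 scale were recovered, and 12 unchanged genes were called.

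Named genes were the 12 called higher and 12 called lower of smallest p that had a symbol, averaged 50 counts or more and showed no overlap between code sets, the 5 and 5 of largest fold, up to 4 called members of each list, and 5 per direction for the interaction. Isg15, Bst2, Gbp3, Usp18, Xaf1, Hmgcs1, Lss, Msmo1, Lrif1, Ptbp2, Golgb1, Snhg14, Snrpn, S100a8, S100a9, Fancm, Ercc6, Krt10, Sbsn and Xist were added after their values were seen. The comparison, members and gene lists were chosen with earlier results of these data known. Some called list members are not reported here by name.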

Additional observations from a re-analysis of the deposited data

Results flagged for a closer look

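In sets of 5 tumors, 1 tumor lay far from the other 4 in 9 of the 268 sets examined by Dixon's ratio (3.36%, where chance flags about 1 in 20). Cotreatment 2 stood above the other earlier-code tumors in Cd5l (1.65 CPM) and Marco (3.06 CPM), and cotreatment 1 in Gm38393 (6.02 CPM). Among later-code tumors, cotreatment 4 stood apart in Gm49599 (4.76 CPM) and in the summed levels of skeletal muscle genes (2063 CPM) and of pericyte and smooth muscle genes (188 CPM). Cotreatment 5 was low in Irf7 (7.74 CPM). Cisplatin 4 was high in B and plasma cell genes (28.3 CPM) and cisplatin 5 in immediate early genes (1881 CPM).

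The code effect differed with and without cisplatin for 302 genes by the interaction test of edgeR. The named positive differences on the log2 scale were 0.87 (Slc11a1), 0.77 (Adam8), 0.75 (Icam1), 2.11 (Ccl3) and 0.69 (Hexa), and the negative ones were -0.45 (Fbxl20), -0.38 (Tbcd), -0.61 (Ovgp1), -0.32 (Prkacb) and -0.55 (Rev3l). All 10 kept their sign with each of the 20 tumors left out, as genes selected on these same tumors tend to. They were called in 8 (Prkacb) to 19 (Slc11a1) of these 20 fits. The causes of the differences were not tested.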

How the results depend on the processing

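The 805 calls between code sets under cisplatin stayed within 1.5 times under RLE (803) and upper quartile scaling (789), a minimum of 10 counts (826), voom with sample weights (902) and no KW6002 term (975). They were 1943 without a filter on low counts, 1323 with DESeq2, 1215 with all 20 tumors in the fit, 1692 without the fold limit, 386 with the length and GC offset and 0 when tested against the fold limit itself (1016 at an unadjusted p under 0.05). Leaving out 1 tumor gave 2 to 1351. Alternatives chosen after seeing the data gave 1914 without cotreatment 4 and cisplatin 3, and 225 without cisplatin 4 and 5. Upper quartile scaling split the calls into 513 higher and 276 lower. The replicate number was added as a block as the labels number replicates in both arms. Deviations of same-numbered tumors correlated at 0.16, 0.23, 0.19, -0.16 and 0.19 (replicates 1 to 5), and 1 of 10 tumors correlated best with its own number. Whether same-numbered tumors share more than a number is not settled by these values. The block left the code effect to replicate 3 alone and gave 0 calls (405 at an unadjusted p under 0.05), with reversed values for Ptx3 (-0.24), Gm38393 (0.027) and H2-T23 (-0.035). The endothelial list median was 0.018 under upper quartile scaling. The code by cisplatin interaction gave 1113 calls with DESeq2 and 602 without a filter, and 0 to 1062 on leaving out 1 tumor. Tumors without cisplatin gave 5 calls with DESeq2 and 0 with each tumor left out. The KW6002 interaction gave 28 with DESeq2 and 0 to 31 with 1 tumor left out. Calls in cisplatin alone ran from 0 to 3455 and in cotreatment from 0 to 19 with 1 tumor left out, and cotreatment gave 105 with DESeq2 (chosen after seeing the data). A lone tumor left in an arm was assumed to vary like the others. The causes of these shifts were not tested. Depth limits genes near 1 CPM, such as Gdf15 and Cxcl3.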

Other observations

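Red blood cell genes were near 0 in every cisplatin-treated tumor of both code sets. Their summed level was 0.0979 to 0.248 CPM in the earlier-code tumors and 0.115 to 0.276 CPM in the later-code tumors, against 25.9 to 74.9 CPM (earlier) and 26.1 to 117 CPM (later) in the tumors without cisplatin. The level did not separate the code sets with or without cisplatin. Adora2a, the gene of the receptor that KW6002 blocks, was at 0.295 ± 0.141 CPM in the earlier-code and 0.487 ± 0.236 CPM in the later-code tumors (log2 fold change 0.70, adjusted p = 0.288), and Nt5e, which makes extracellular adenosine, was at 9.07 ± 2.56 and 8.28 ± 0.838 CPM (log2 fold change -0.11, adjusted p = 0.699). Both were chosen after their values were seen.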
